A study of Mus musculus with 6 samples.

Results

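Genes for glycoproteins and proteoglycans of the extracellular matrix were followed in monocytes sorted from B16F10 melanoma. The set holds 47 genes of the 56980 in the deposited table, matched by symbol, each to 1 row. It was drawn up with the difference between the same groups in view. The values of its members, and whether each passed a test over all genes, are therefore given as a description and not as independent evidence. The members fall into 16 elastic fibre and microfibril genes, 10 matricellular genes, 7 basement membrane genes, 6 leucine-rich proteoglycan genes and 8 other matrix genes.

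RNA was sequenced from cells gated as CD11b+ Ly6Chi Ly6G-, taken from tumours of the mCherry-labelled B16F10 line, a transplantable mouse skin melanoma. In the LNP-Gsdme group (3 libraries) the tumours had been treated with lipid nanoparticles carrying mRNA for gasdermin E, a protein that forms pores in the cell membrane and can start lytic cell death. In the LNP-GFP group (3 libraries) the nanoparticles carried mRNA for green fluorescent protein. Hosts of both groups are labelled wild type (WT), so the groups differ by the mRNA and share the tumour line, the particle and the gate. The labels used here give no age, dose or time, and do not say whether each library came from a separate animal, so the spread between libraries may be technical.

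The extracellular matrix is the protein and sugar scaffold between cells, and fibroblasts lay down most of it in a tumour. Elastic fibres are built from a core of elastin on a sheath of fibrillin microfibrils, which also store latent TGF-beta. Basement membranes are sheets of laminin, nidogen, collagen IV and perlecan under endothelium and around muscle and fat. Small leucine-rich proteoglycans bind collagen fibrils and set their thickness and spacing, and matricellular proteins act on cell receptors more than as scaffold. Monocytes and macrophages are known to make some of these proteins themselves, among them thrombospondin 1, fibronectin and versican.

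Total counts were 15991826 to 18751784 per library in LNP-Gsdme and 20233559 to 22932095 in LNP-GFP. Of the monocyte genes, Itgam, which encodes CD11b, stood at 327 to 562 CPM in LNP-Gsdme and 365 to 632 CPM in LNP-GFP (CPM is the count scaled to a common library size). Ly6g, the antigen excluded in the gate, was at most 0.618 CPM in any library. Other neutrophil markers were higher. Csf3r was at 108 to 155 CPM in LNP-Gsdme and 97.6 to 115 CPM in LNP-GFP. S100a9 was at 30.8 to 108 CPM in LNP-Gsdme and 15.5 to 116 CPM in LNP-GFP. How many neutrophils the fraction held was not measured. The antigen gene Ly6c2 was at 1374 to 1856 CPM in LNP-Gsdme and at 211 to 267 CPM in LNP-GFP, although both groups were gated as high for Ly6C. Of the 8 monocyte markers Cd14 fell, Ly6c2 and Plac8 rose and 5 did not pass. Cd14, the most abundant, was at 2530, 2333 and 2205 CPM in LNP-Gsdme 1 to 3 and 3449, 4170 and 3803 CPM in LNP-GFP 1 to 3. Csf1r was at 713 to 941 CPM in LNP-Gsdme and 982 to 1262 CPM in LNP-GFP and did not pass. Markers of other cells were present in both groups. The 12 fibroblast markers, none of them a member, summed to 3093, 2305 and 5678 CPM in LNP-Gsdme 1 to 3 and to 8980, 10082 and 9525 CPM in LNP-GFP 1 to 3. None of the 12 was at 0 throughout, and most of each sum was collagen. Of the 12, 6 fell and 0 rose (0 were higher at an unadjusted p below 0.05 or by DESeq2). Of all tested genes 5.32% fell and 6.3% rose. Pdgfra, Pdgfrb and Thy1 overlapped between the groups. Their log2 fold changes (LNP-Gsdme over LNP-GFP) were -0.48 ± 0.30, -0.36 ± 0.28 and 0.40 ± 0.26 (SE). The 9 melanoma markers summed to 88.5, 138 and 708 CPM in LNP-Gsdme 1 to 3 and to 297, 1772 and 1051 CPM in LNP-GFP 1 to 3, so that the groups overlapped. LNP-GFP 3 lay between the other LNP-GFP libraries in 37 of the 46 members that passed the low-count filter, and in 61.9% of all tested genes. Whether it came from a separate animal is not stated, and counts of members are also given without it.

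As a set, these matrix transcripts, which were chosen on this difference, took a smaller share of the RNA of the sorted fraction after LNP-Gsdme. The 47 genes together made up 0.829, 0.755 and 0.957% of counts in LNP-Gsdme 1 to 3, against 1.54, 1.70 and 1.61% in LNP-GFP 1 to 3. The exact binomial intervals (95%, counting error only) were 0.825 to 0.834, 0.750 to 0.759 and 0.953 to 0.962% in LNP-Gsdme 1 to 3, and they stayed between 1.54 and 1.71% in LNP-GFP. The summed level was 8391 ± 861 CPM in LNP-Gsdme and 16374 ± 1005 CPM in LNP-GFP (SD, n = 3 each), with no overlap between the groups. Thbs1 alone held 53.4 to 70.3% of the members' counts in LNP-Gsdme and 54.3 to 54.9% in LNP-GFP. Without Thbs1 the other 46 genes summed to 2595, 2239 and 4308 CPM in LNP-Gsdme 1 to 3 and to 6953, 7958 and 7433 CPM in LNP-GFP 1 to 3. In such bulk samples fewer cells of a type and less RNA per cell cannot be told apart, and the part of the fibroblast and melanoma sums in these differences was not tested.

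Of the 47 genes, 46 passed the low-count filter, and Smoc1 (58 counts over all libraries) did not. In the fit over all genes 26 of the 46 fell, 0 rose and 20 did not pass (edgeR's quasi-likelihood test, p adjusted over all genes and below 0.05), where 5.32% of all 16010 tested genes fell and 6.3% rose. Since the genes were chosen on this comparison, nothing is read from that count. The 1 member that was higher at an unadjusted p below 0.05 was Ecm1, and DESeq2 and limma-voom called 0 members higher. All LNP-Gsdme libraries lay below all LNP-GFP libraries in 42 of the 46, against 18.2% of all tested genes. The median log2 fold change (LNP-Gsdme over LNP-GFP) was -1.35, against -0.01 over all tested genes. Without the low-count filter 19 of the 26 kept their call, and Bgn, Fbln1, Hspg2, Lum, Mfap5, Nid2 and Postn lost it. The number that fell rested on single libraries. It was 4 without LNP-GFP 3, 7 without LNP-Gsdme 1, 6 without LNP-Gsdme 2, 14 without LNP-GFP 2 and 43 without LNP-Gsdme 3, while the median of the members stayed between -1.77 and -1.16. The number over all genes moved as well. From 851 in the main fit it went to 24 without LNP-GFP 3 and to 1216 without LNP-GFP 1, the lowest and highest with 1 library left out. Thbs4, Eln, Cilp and Smoc2 passed in each of these fits, and they are the 4 that passed without LNP-GFP 3.

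**Figure D1:**
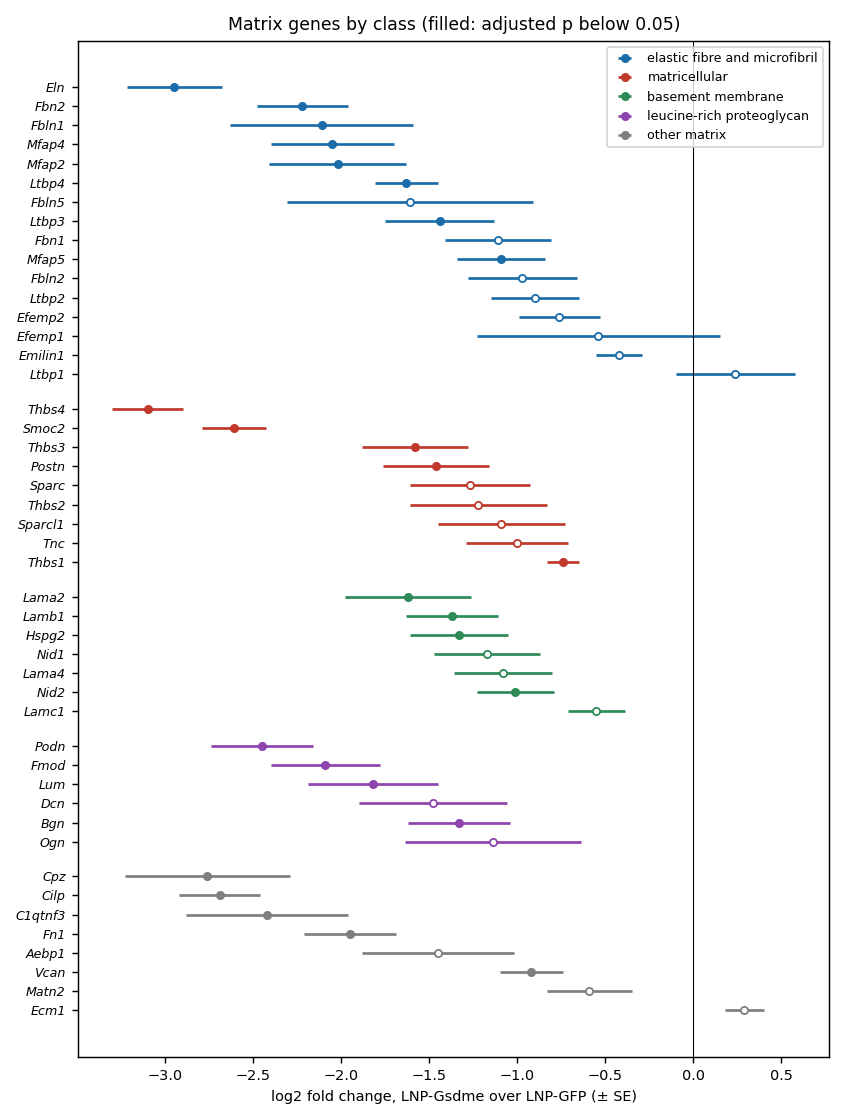
Log2 fold change of LNP-Gsdme over LNP-GFP (x axis, point ± SE) for the 46 matrix genes that passed the low-count filter, grouped by class, with filled points at an adjusted p below 0.05. The points run from -3.10 for Thbs4 to 0.29 for Ecm1, and 44 of them lie left of 0.

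The 5 classes had medians of similar size with wide spreads inside each. The median log2 fold change was -1.27 for the elastic fibre and microfibril genes, -1.27 for the matricellular genes and -1.17 for the basement membrane genes. It was -1.65 for the leucine-rich proteoglycans and -1.70 for the other matrix genes. Inside the classes the values ran from -2.95 to 0.24, from -3.10 to -0.74, from -1.62 to -0.55, from -2.45 to -1.14 and from -2.76 to 0.29, in the same order. The basement membrane genes had the narrowest of these 5 ranges. In each class the members that passed were a part of it: 8 of 16, 5 of 9 tested, 4 of 7, 4 of 6 and 5 of 8 fell. Of all tested genes 5.32% fell, and since the members were chosen on this difference nothing is read from the class counts.

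Elastin, the core of the elastic fibre, had the lowest log2 fold change of its class. Eln (chromosome 5, 134731447 to 134776177, GRCm39) was at 9.61, 13.5 and 19.7 CPM in LNP-Gsdme 1 to 3, against 127, 93.8 and 110.2 CPM in LNP-GFP 1 to 3. Every LNP-Gsdme library was far below every LNP-GFP library, with a log2 fold change of -2.95 ± 0.27 (SE, 3 libraries per group). Fbn1, the main fibrillin of adult microfibrils (chromosome 2, 125142514 to 125349913), was at 74.9, 65.3 and 148 CPM in LNP-Gsdme and at 198, 219 and 205 CPM in LNP-GFP. LNP-Gsdme 3 came nearest to the LNP-GFP libraries, and with a log2 fold change of -1.11 ± 0.30 (SE) the gene did not pass. Fbn2, the fibrillin known mainly from development, was much scarcer, at 1.91 ± 0.722 CPM in LNP-Gsdme and 9.01 ± 0.784 CPM in LNP-GFP (SD, n = 3 each), and it fell by 2.22 on the log2 scale.

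The fibulins and related bridging proteins, which link elastin to microfibrils and basement membranes, were uneven. Fbln2 was at 78.5, 74.8 and 161 CPM in LNP-Gsdme and 178, 224 and 212 CPM in LNP-GFP, with a log2 fold change of -0.97 that did not pass. Fbln1 fell by 2.11 ± 0.52 on the log2 scale (SE), and it lost its call with upper-quartile factors, with library size only or with a stricter count filter. Fbln5 and Efemp2, both required in mice for elastic fibre assembly, had log2 fold changes of -1.61 ± 0.70 and -0.76 ± 0.23 (SE), and neither passed. Fbln5 varied widely inside both groups, from 3.43 to 20.5 CPM in LNP-Gsdme and from 15.7 to 44.1 CPM in LNP-GFP, and the groups overlapped. Efemp1 overlapped too, at 4.16, 3.06 and 14.3 CPM in LNP-Gsdme and 4.4, 17.0 and 10.1 CPM in LNP-GFP. Emilin1, a glycoprotein at the interface of elastin and microfibrils, had the smallest negative log2 fold change of the class (-0.42 ± 0.13 SE, not passing), at 52.4, 46.3 and 65.3 CPM in LNP-Gsdme and 73.5, 71.5 and 75.3 CPM in LNP-GFP.

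Among the microfibril-associated glycoproteins, Mfap2, Mfap4 and Mfap5 fell by 2.02, 2.05 and 1.09 on the log2 scale. Mfap5 lost its call with library size only. The latent TGF-beta binding proteins, which tether latent growth factor to microfibrils, did not move together. Ltbp4 was at 5.96, 8.23 and 5.72 CPM in LNP-Gsdme and 23.5, 18.5 and 19.4 CPM in LNP-GFP, a log2 fold change of -1.63 ± 0.18 (SE). Ltbp3 fell by 1.44, and Ltbp2, the family member that does not bind latent TGF-beta, had a log2 fold change of -0.90 that did not pass. Ltbp1 was the exception in the class, at 5.73, 6.11 and 10 CPM in LNP-Gsdme and 3.75, 8.29 and 6.44 CPM in LNP-GFP. Its groups overlapped, and its log2 fold change of 0.24 ± 0.34 (SE) changed sign without LNP-Gsdme 3 (-0.05) and also without LNP-GFP 1.

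The matricellular class held both the most abundant member and the one with the largest fall, and both are thrombospondins. Thbs1 (chromosome 2, 117942357 to 117957614), an activator of latent TGF-beta that binds CD47 and CD36, was at 5801, 5290 and 4942 CPM in LNP-Gsdme and at 8467, 9465 and 8846 CPM in LNP-GFP. It fell by 0.74 ± 0.09 on the log2 scale (SE), with libraries close together inside each group. Thbs4 (chromosome 13, 92888098 to 92931326), a pentameric thrombospondin of tendon and muscle, was at 5.51, 5.05 and 5.26 CPM in LNP-Gsdme and at 53.0, 33.3 and 49.3 CPM in LNP-GFP. The LNP-Gsdme libraries were nearly alike, and the log2 fold change was -3.10 ± 0.20 (SE). Thbs3 fell by 1.58, and Thbs2, an inhibitor of vessel growth, had a log2 fold change of -1.22 ± 0.39 (SE) that did not pass. The log2 fold changes of the 4 thrombospondin genes thus ran from -3.10 to -0.74.

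SPARC, a collagen-binding glycoprotein of remodelling tissue, and its relatives were set apart by size as well. Sparc (chromosome 11, 55285326 to 55314009) was at 309.9, 261 and 649 CPM in LNP-Gsdme and 898, 1050 and 986 CPM in LNP-GFP, a log2 fold change of -1.27 ± 0.34 (SE) that did not pass. Its relative Sparcl1 (hevin) was at 31.1, 32.7 and 78.1 CPM in LNP-Gsdme and 93.0, 106 and 103 CPM in LNP-GFP, and it did not pass either. Smoc2, a SPARC-related calcium-binding protein, was at 1.80, 1.93 and 2.63 CPM in LNP-Gsdme and 12.6, 14.0 and 12.5 CPM in LNP-GFP and fell by 2.61 ± 0.18 on the log2 scale (SE). Smoc1 reached at most 0.412 CPM in LNP-Gsdme and 1.10 CPM in LNP-GFP. Tnc, tenascin-C of wound and tumour stroma, was at 175, 142 and 322 CPM in LNP-Gsdme and 449.7, 402 and 424 CPM in LNP-GFP, and did not pass (log2 fold change -1.0 ± 0.29 SE). Postn, periostin, fell by 1.46 ± 0.30 (SE).

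**Figure D2:**
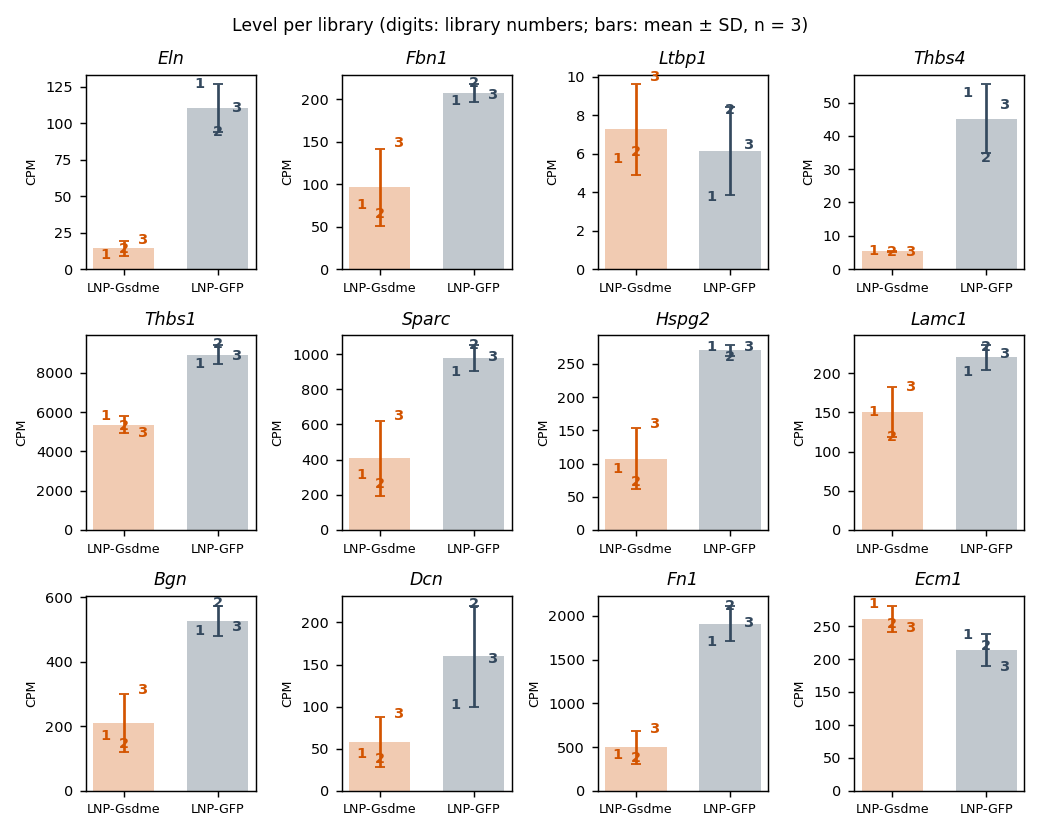
Level in CPM (y axis, from 0) of 12 matrix genes in each library, with LNP-Gsdme left and LNP-GFP right; digits mark the library numbers and bars give the mean ± SD of 3 libraries. LNP-Gsdme 3 is the highest LNP-Gsdme library for Eln, Fbn1, Ltbp1, Sparc, Hspg2, Lamc1, Bgn, Dcn and Fn1 but not for Thbs4, Thbs1 or Ecm1.

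The basement membrane genes had log2 fold changes between -1.62 and -0.55. Hspg2, which encodes the heparan sulfate proteoglycan perlecan (chromosome 4, 137196080 to 137297941), was at 92.2, 71.4 and 159 CPM in LNP-Gsdme and 275, 261 and 276 CPM in LNP-GFP. It fell by 1.33 ± 0.28 on the log2 scale (SE). Lamc1, the laminin gamma-1 chain shared by most laminins, was at 151, 119 and 182 CPM in LNP-Gsdme and 202, 234 and 224 CPM in LNP-GFP, with a log2 fold change of -0.55 ± 0.16 (SE) that did not pass. Lamb1, the beta-1 chain, fell by 1.37 ± 0.26 (SE), and the difference between these chains was not tested. Of the alpha chains, Lama2 of muscle and nerve sheaths was at 3.31, 2.81 and 7.16 CPM in LNP-Gsdme and 11.9, 16.2 and 13 CPM in LNP-GFP and fell by 1.62 ± 0.36 (SE). Lama4 of vessel walls had a log2 fold change of -1.08 ± 0.28 (SE) and did not pass. Nid1, a nidogen that joins laminin to collagen IV, was at 72.3, 58.3 and 131 CPM in LNP-Gsdme and 169, 225 and 194 CPM in LNP-GFP. Its log2 fold change of -1.17 ± 0.30 (SE) did not pass, while Nid2 passed with -1.01 ± 0.22 (SE). The groups did not overlap in either nidogen gene. Endothelial markers, whose cells rest on such membranes, summed to 249 to 326 CPM in LNP-Gsdme and 335 to 401 CPM in LNP-GFP, and 1 of 10 (Vwf) fell. Pericyte and smooth muscle markers summed to 103 to 222 CPM in LNP-Gsdme and 251 to 326 CPM in LNP-GFP, and 3 of the 9 tested fell (5.32% of all tested genes fell). The part of these sums in the basement membrane values was not tested.

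The small leucine-rich proteoglycans were lower in every LNP-Gsdme library than in every LNP-GFP library in 6 of 6 genes, where 18.2% of all tested genes were so placed and the members were chosen on this difference. Bgn, biglycan (chromosome X, 72527208 to 72539539), was at 169, 146 and 313 CPM in LNP-Gsdme and 494, 581 and 509 CPM in LNP-GFP, and fell by 1.33 ± 0.29 on the log2 scale (SE). Dcn, decorin, the closest relative of biglycan, was at 43.5, 37.3 and 91.7 CPM in LNP-Gsdme and 102, 222 and 156 CPM in LNP-GFP. Its log2 fold change of -1.48 ± 0.42 (SE) was no smaller, but it did not pass, and its LNP-GFP libraries were spread widely. Lum, lumican, was at 6.29, 6.05 and 15.8 CPM in LNP-Gsdme and 30.7, 35.4 and 33.9 CPM in LNP-GFP and fell by 1.82. Podn, podocan, was at 1.07, 2.0 and 2.58 CPM in LNP-Gsdme and 11.1, 10.2 and 9.64 CPM in LNP-GFP and fell by 2.45 ± 0.29 (SE). Fmod, fibromodulin of tendon and cartilage, fell by 2.09 ± 0.31 (SE). Ogn, osteoglycin, had -1.14 ± 0.50 (SE) and did not pass, with 3.2, 2.87 and 11.0 CPM in LNP-Gsdme and 14.0, 11.9 and 12.0 CPM in LNP-GFP.

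Of the other matrix genes, Fn1, fibronectin (chromosome 1, 71624679 to 71692359), was at 407, 373 and 708 CPM in LNP-Gsdme and 1706, 2117 and 1913 CPM in LNP-GFP, and fell by 1.95 ± 0.26 on the log2 scale (SE). Vcan, versican, a proteoglycan that binds hyaluronan, was at 177, 164 and 170.2 CPM in LNP-Gsdme and 241, 397 and 331 CPM in LNP-GFP. The LNP-Gsdme libraries were nearly alike, and it fell by 0.92 ± 0.18 (SE). Ecm1, a secreted glycoprotein of skin and other connective tissue (chromosome 3, 95641459 to 95646881), was the opposite case, at 284, 253 and 247 CPM in LNP-Gsdme and 236, 219 and 188 CPM in LNP-GFP. It was the 1 member with every LNP-Gsdme library above every LNP-GFP library, where 19.6% of all tested genes were so placed, and its log2 fold change of 0.29 ± 0.11 (SE) did not pass. Cilp, cartilage intermediate layer protein, was at 9.16, 9.54 and 7.11 CPM in LNP-Gsdme and 71.8, 41.3 and 53.5 CPM in LNP-GFP and fell by 2.69 ± 0.23 (SE). Cpz, a carboxypeptidase with a Wnt-binding domain, was at 1.07, 0.374 and 1.55 CPM in LNP-Gsdme and 4.84, 9.53 and 6.39 CPM in LNP-GFP and fell by 2.76 ± 0.47 (SE). C1qtnf3, a secreted protein of the C1q and TNF family, fell by 2.42, while Aebp1 and Matn2 had -1.45 and -0.59 and did not pass.

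Compared per length, as deposited FPKM (counts scaled by gene length and library total), Thbs1 was the highest member in each of the 6 libraries, at 786 to 881 FPKM in LNP-Gsdme and 1301 to 1423 FPKM in LNP-GFP. Sparc came next by the mean over all libraries, at 50 to 128 FPKM in LNP-Gsdme and 172 to 196 FPKM in LNP-GFP. The order below it differed between the groups. In LNP-GFP, Fn1 (94.4 to 115 FPKM) came after Sparc and was clear of its neighbours, Bgn (51.1 to 58.7), Tnc (49.6 to 56.7), Ecm1 (38.6 to 49.1) and Aebp1 (29.6 to 56.5), of which Aebp1 overlapped the other 3 and Bgn overlapped Tnc. In LNP-Gsdme, Ecm1 (52.9 to 58.5 FPKM) overlapped Sparc and was above Fn1 (20.7 to 40.5), Tnc (17.9 to 42.1) and Bgn (15.1 to 33.5), and these last 3 overlapped. At the low end Smoc1 averaged 0.0821 FPKM, and Fbn2, Ltbp1 and Lama2 averaged 0.380, 0.405 and 0.483 FPKM over all libraries.

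Inside the LNP-Gsdme group most members had a common order of libraries. The members were chosen on results of these same libraries, so they are not independent readings of that order. LNP-Gsdme 3 was the highest LNP-Gsdme library in 39 of 46 members and LNP-Gsdme 2 the lowest in 35, whereas over all tested genes LNP-Gsdme 3 was highest in 33.8% and LNP-Gsdme 2 lowest in 29.3%. The ratio of LNP-Gsdme 3 to the mean of LNP-Gsdme 1 and 2 was 2.27 for Sparc, 2.11 for Fbn1, 1.99 for Bgn, 1.94 for Hspg2 and 1.82 for Fn1. It was 2.10 for the fibroblast marker sum, 2.06 for the pericyte and smooth muscle sum, 6.24 for the melanoma sum and 0.851 for the monocyte sum. The ratio was above that of the fibroblast sum in 15 of the 46 members, with the highest values for Fbln5 (4.72), Efemp1 (3.96), Ogn (3.62) and Fbln1 (3.19). The 7 members for which LNP-Gsdme 3 was not the highest were Thbs4 (0.996), Ltbp4 (0.806), Cilp (0.761), Fmod (0.759), Thbs1 (0.891), Vcan (1.0) and Ecm1 (0.919). The tendon and cartilage marker sum had a ratio of 2.19. It was mostly Sox9, at 3.15, 2.62 and 7.47 CPM in LNP-Gsdme 1 to 3 where the sum was 3.82, 3.43 and 7.94. Comp, from the same list, was at 0.393, 0.437 and 0.309 CPM, with few counts behind it. All these ratios compare single libraries, so they carry no error.

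Inside the LNP-GFP group, LNP-GFP 2 was the highest in 26 members (56.5%) and LNP-GFP 1 in 16 (34.8%), against 40.1% and 41.1% of all tested genes. The ratio of LNP-GFP 2 to LNP-GFP 1 was 3.87 for Efemp1, 2.81 for Fbln5, 2.21 for Ltbp1, 2.17 for Dcn, 2.08 for Fbln1 and 1.95 for Aebp1. It was 0.335 for C1qtnf3, 0.575 for Cilp, 0.592 for Fmod, 0.628 for Thbs4, 0.740 for Eln and 0.755 for Postn. Sparc (1.17), Bgn (1.18) and Hspg2 (0.951) were near the ratio of the fibroblast sum, which was 1.12. The melanoma sum had a ratio of 5.96 and the pericyte and smooth muscle sum one of 0.770. The median over all tested genes was 0.995.

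As sums, the classes differed in how far LNP-Gsdme 3 stood from its group. The elastic fibre and microfibril sum was 328, 295 and 598 CPM in LNP-Gsdme 1 to 3 and 859.6, 959 and 919.8 CPM in LNP-GFP 1 to 3. The basement membrane sum was 405, 324 and 624 CPM in LNP-Gsdme and 890.2, 958 and 935 CPM in LNP-GFP. The leucine-rich proteoglycan sum was 226, 195 and 436 CPM in LNP-Gsdme and 662, 866 and 729 CPM in LNP-GFP. The sum of the other matrix genes was 945, 847 and 1263 CPM in LNP-Gsdme and 2434, 3059 and 2721 CPM in LNP-GFP. In these 4 classes LNP-Gsdme 3 was the highest of its group and still below every LNP-GFP library. The matricellular sum was 6492, 5868 and 6329 CPM in LNP-Gsdme and 10574, 11580 and 10974 CPM in LNP-GFP, with LNP-Gsdme 3 between the other LNP-Gsdme libraries. The log2 ratio of the group means was -1.17, -1.04, -1.40, -1.43 and -0.83 for these 5 sums in the order given, and -1.37 for the fibroblast markers.

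**Figure D3:**
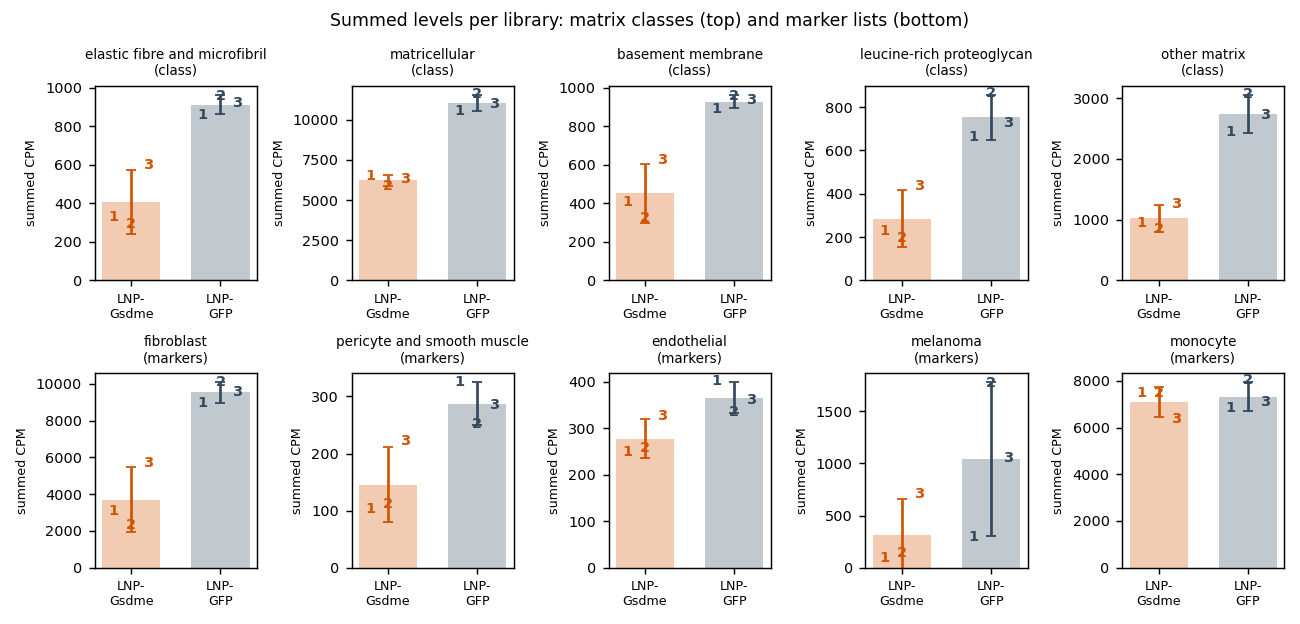
Summed CPM per library (y axis, from 0) of the 5 matrix classes in the top row and of 5 marker lists in the bottom row, with LNP-Gsdme left and LNP-GFP right; digits mark the library numbers and bars give the mean ± SD of 3 libraries. The elastic fibre, basement membrane, leucine-rich proteoglycan and other matrix sums share the raised LNP-Gsdme 3 of the fibroblast sum (5678 CPM, against 3093 and 2305), and the matricellular sum, which is mostly Thbs1, does not. The lower SD bar of the LNP-Gsdme melanoma sum runs below the axis.

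Each member was also set against the fibroblast marker sum of its own library, which scales all genes of a library alike. Sparc stood at 100, 113 and 114 CPM per 1000 CPM of fibroblast markers in LNP-Gsdme 1 to 3 and at 100, 104 and 104 in LNP-GFP 1 to 3. Bgn stood at 54.7, 63.2 and 55.2 in LNP-Gsdme and 55.0, 57.6 and 53.4 in LNP-GFP on the same scale, and the groups overlapped. Eln stood at 3.11, 5.85 and 3.48 in LNP-Gsdme and 14.1, 9.31 and 11.6 in LNP-GFP, with no overlap. Thbs4 stood at 1.78, 2.19 and 0.926 in LNP-Gsdme and 5.91, 3.30 and 5.18 in LNP-GFP. In all, 11 of the 47 genes were lower per fibroblast marker sum in every LNP-Gsdme library, 12 were higher in every one and 24 overlapped. Over all tested genes 0.3% were lower and 84.1% higher in this way.

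Collagens made up 87.0 to 92.6% of the fibroblast sum in LNP-Gsdme and 94.0 to 94.2% in LNP-GFP, and with Col1a1, Col1a2 and Col3a1 left out the split was 27 lower and 3 higher (1.87 and 64.8% of all tested genes). Thy1, which T cells also carry, then made up 45.5, 45.6 and 33.2% of the sum in LNP-Gsdme 1 to 3, against 27.9, 11.9 and 19.4% in LNP-GFP 1 to 3. It was at 145 ± 12.8 CPM in LNP-Gsdme and 110.1 ± 39.9 CPM in LNP-GFP (SD, n = 3 each), the other way from the list as a whole. With Thy1 left out too, the split was 16 lower and 6 higher (0.625 and 78.4% of all tested genes). Pdpn was then the largest part of the sum. It was at 117, 97 and 149 CPM of 191, 163 and 279 in LNP-Gsdme 1 to 3. In LNP-GFP 1 to 3 it was at 224, 307 and 269 CPM of 387, 517 and 461. The counts of lower and higher genes thus rest on the choice of markers. Lower with each of the 3 sums were Eln, Fbn2, Mfap2, Mfap4, Thbs4, Smoc2, Lama2, Lum, Podn, Fn1 and Cpz, which are 11 genes with members of each of the 5 classes. Higher with each of them were Ecm1, Ltbp1 and Emilin1. The share of all tested genes placed alike with all 3 sums was not counted. It cannot exceed 0.3% for lower and 64.8% for higher, the smallest shares with 1 sum. The sums share markers and the members were chosen on the group difference, so this agreement is no independent support. Sparc and Bgn had log2 ratios of 0.09 and 0.06 with the whole sum, -0.65 and -0.71 without collagens, and -0.23 and -0.27 without collagens and Thy1. The log2 ratio of Eln was -1.49, -2.30 and -1.88 with these 3 sums, and that of Thbs4 was -1.55, -2.42 and -1.97. How many fibroblasts each library held was not measured.

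**Figure D4:**
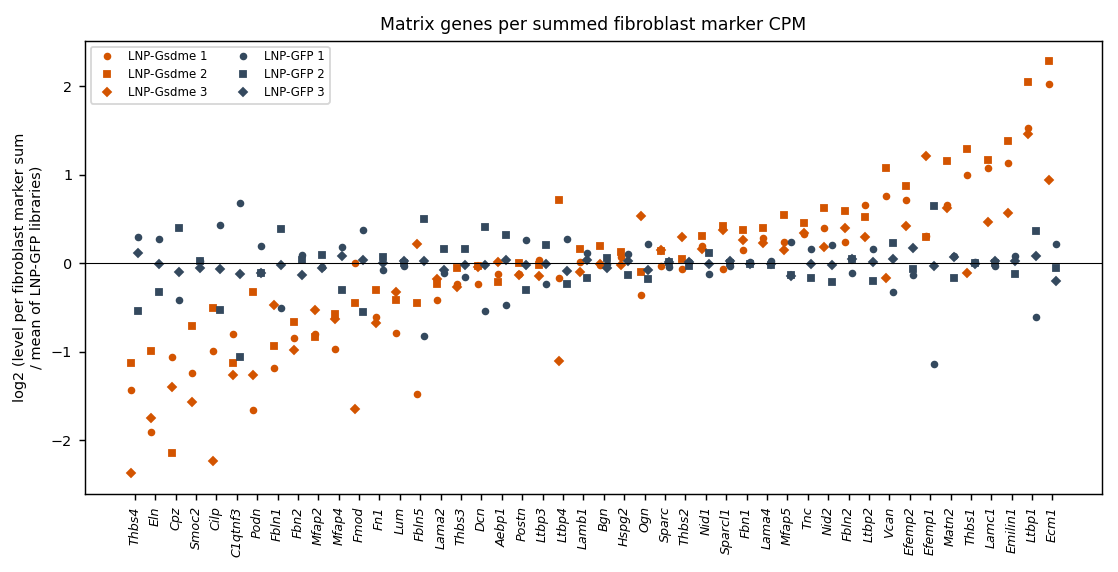
Level of 46 matrix genes (Smoc1 left out) divided by the fibroblast marker sum of the same library, as log2 of the ratio to the mean of the 3 LNP-GFP libraries (y axis), ordered from the lowest to the highest LNP-Gsdme mean. Thbs4 and Eln stand at the low end, Ltbp1 and Ecm1 at the high end, and Sparc, Bgn and Hspg2 near 0.

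Promoters are shown because they belong to members at the extremes and the middle of that order: Thbs4 with the largest fall, Sparc level with the collagen-rich fibroblast sum, and Ecm1 the 1 member higher in every LNP-Gsdme library. The RefSeq promoter table (GRCm38.p6, a different build from the GRCm39 of the counts) matched 32 of the 47 genes. The 250 bases before the annotated start lie at chr13:92794819-92795068 (minus strand) for Thbs4, chr11:55420081-55420330 (minus strand) for Sparc and chr3:95739570-95739819 (minus strand) for Ecm1. Capitals mark matches, on either strand, to 7 motifs. These are the core of the TATA box (TATAAA), the GC box bound by SP1 and its relatives (GGGCGG), the box of the factor NF-Y (CCAAT), the site of AP-1 factors (TGACTCA), the site of TEAD factors that work with YAP (GGAATG), the SMAD box of TGF-beta signalling (CAGACA) and the CArG box of serum response factor. The E-box (CANNTG) was searched too but is not capitalised, since 66% of all promoters and 75% of the member promoters hold it.
Thbs4: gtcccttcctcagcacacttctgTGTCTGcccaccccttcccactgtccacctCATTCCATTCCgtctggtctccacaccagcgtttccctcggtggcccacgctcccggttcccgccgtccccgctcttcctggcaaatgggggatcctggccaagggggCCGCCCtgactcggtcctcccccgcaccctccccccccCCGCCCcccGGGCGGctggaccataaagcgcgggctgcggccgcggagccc
Sparc: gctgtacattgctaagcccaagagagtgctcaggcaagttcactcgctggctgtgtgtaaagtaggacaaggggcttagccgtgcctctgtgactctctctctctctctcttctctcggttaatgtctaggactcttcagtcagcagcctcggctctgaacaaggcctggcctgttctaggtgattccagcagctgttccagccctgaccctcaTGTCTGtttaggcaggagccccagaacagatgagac
Ecm1: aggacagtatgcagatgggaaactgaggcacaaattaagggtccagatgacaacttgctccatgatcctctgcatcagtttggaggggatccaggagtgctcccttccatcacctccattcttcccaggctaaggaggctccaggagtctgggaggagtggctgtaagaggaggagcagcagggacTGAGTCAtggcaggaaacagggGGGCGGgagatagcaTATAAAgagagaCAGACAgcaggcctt
Thbs4 holds 3 GC boxes, 1 SMAD match and 2 TEAD matches that overlap by 1 base, Sparc holds 1 SMAD match, and Ecm1 holds 1 match each to the TATA core, GC box, AP-1 and SMAD motifs. Of the 32 member promoters 19 (59.4%) held a GC box, against 32.9% of the 27025 promoters in the table. A SMAD match was in 25.0% of member promoters and 17.1% of all, a TEAD match in 12.5% and 12.6%, an AP-1 match in 3.12% and 4.43%, an NF-Y match in 25.0% and 34.5%, a TATA core in 15.6% and 13%, and a CArG box in 3.12% and 1.40%. The table of all promoters holds genes of every type and level, and a match is a description of letters, not of binding.

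Further matrix genes and their receptors were taken from 7 lists of related genes. They are no counterpart to the members, which were chosen on this difference, and the counts are not compared. Of these 106 genes 86 were tested, of which 19 fell, 1 rose and 66 did not pass. Over all tested genes 5.32% fell and 6.3% rose. The median log2 fold change of the 86 was -0.67. The 19 became 0 without LNP-GFP 3, LNP-Gsdme 1 or LNP-Gsdme 2 and 42 without LNP-Gsdme 3. Over all genes the number that fell ran from 24 to 1216 with 1 library left out. In the elastic fibre assembly list (15 tested), Fbln7 fell and Adamtsl4, a microfibril-associated protein, rose by 0.52 ± 0.11 on the log2 scale (SE; edgeR adjusted p = 0.0308). With LNP-GFP 1 left out 2 related genes rose, and with any other single library left out 0 did. Lox, the lysyl oxidase that crosslinks elastin and collagen, was at 83.3, 60.7 and 177 CPM in LNP-Gsdme and 209, 476 and 338 CPM in LNP-GFP, and did not pass (log2 fold change -1.67 ± 0.46 SE, edgeR adjusted p = 0.0643). Emilin2 was the most abundant of this list, at 708 to 904 CPM in LNP-Gsdme and 839 to 924 CPM in LNP-GFP, and Plod1 was at 109 to 134 CPM in LNP-Gsdme and 133 to 156 CPM in LNP-GFP. Neither passed.

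Of the other leucine-rich proteoglycans, 5 of 10 were tested and Ecm2 fell (log2 fold change -1.55, edgeR adjusted p = 0.0242). Prelp, Aspn and Tsku, the 3 most abundant of them, had -1.19, -1.69 and -0.64 and did not pass, and Prelp and Tsku overlapped between the groups. Podnl1 went the other way with 0.94 ± 0.70 (SE) and did not pass. It was at 2.70, 3.43 and 2.63 CPM in LNP-Gsdme and 2.57, 0.183 and 1.80 CPM in LNP-GFP, so few counts lie behind its value. Of 12 other basement membrane genes tested, Lama5, Lama3, Hmcn1 and Papln fell (log2 fold changes -1.41, -1.31, -3.07 and -1.95). Hmcn1, hemicentin-1, was at 0.0562, 0.561 and 0.361 CPM in LNP-Gsdme and 2.09, 3.66 and 2.5 CPM in LNP-GFP, so few counts lie behind its value. Agrn, Pxdn and Lamb2, higher in CPM, had -0.12, -0.81 and -1.02 and did not pass. Of 13 other matricellular genes tested, Ccn2, Tnxb, Comp and Fbln7 fell, with log2 fold changes of -1.10, -2.06, -2.59 and -2.47. Comp and Fbln7 averaged 0.38 and 0.29 CPM in LNP-Gsdme, so few counts lie behind their values. Fbln7 is the same gene as in the elastic fibre assembly list. The most abundant of that list were Tgfbi, Spp1 and Fstl1, of which Tgfbi and Spp1 are made in quantity by macrophages. Tgfbi was at 2045 to 2459 CPM in LNP-Gsdme and 2080 to 2230 CPM in LNP-GFP, Spp1 at 941 to 1405 CPM in LNP-Gsdme and 947 to 1028 CPM in LNP-GFP, and both groups overlapped. Fstl1 was at 81.1 to 199 CPM in LNP-Gsdme and 247 to 273 CPM in LNP-GFP and did not pass. Of 9 tested genes for hyaluronan and its binding proteins 0 passed by edgeR or limma-voom (3 were lower and 0 higher at an unadjusted p below 0.05, and DESeq2 called 2 lower), among them Cd44 (log2 fold change -0.31), Tnfaip6 (-1.14) and Cemip2 (-0.15).

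Receptors for these ligands fell in 8 of 24 tested genes, and 0 rose (1 was higher at an unadjusted p below 0.05, and 1 by DESeq2). Over all tested genes 5.32% fell and 6.3% rose. Cd36, a thrombospondin receptor, was at 253, 233 and 273 CPM in LNP-Gsdme and 625, 403 and 504 CPM in LNP-GFP (log2 fold change -1.01 ± 0.17 SE, edgeR adjusted p = 0.0207). Itgb1, the integrin beta-1 chain shared by laminin and fibronectin receptors, was at 414, 412 and 445 CPM in LNP-Gsdme and 584, 607 and 587 CPM in LNP-GFP (-0.48 ± 0.07 SE, edgeR adjusted p = 0.0135). Sdc4, a syndecan that binds fibronectin, was at 504, 449 and 561 CPM in LNP-Gsdme and 740.3, 889 and 823 CPM in LNP-GFP (-0.70 ± 0.11 SE, edgeR adjusted p = 0.0193). Sdc1, Itgav, Itga9, Itga1 and Itga11 fell as well, with log2 fold changes of -1.60, -0.54, -1.21, -0.80 and -1.71. Sdc3, the most abundant of the list, was at 1458, 1355 and 1290 CPM in LNP-Gsdme and 1170, 626 and 874 CPM in LNP-GFP and did not pass (0.62 ± 0.22 SE, edgeR adjusted p = 0.108), nor did the fibronectin receptor chain Itga5 (-0.19). Of 9 genes for TGF-beta and its receptors, Tgfb2 and Tgfbr1 fell (log2 fold changes -2.10 and -0.63), while Tgfb1 (-0.16) and Tgfbr2 (0.09) did not pass. Nrros, which holds latent TGF-beta on myeloid cells, had the largest positive log2 fold change of the list (1.57 ± 0.53 SE, edgeR adjusted p = 0.099) and was the 1 gene in it higher at an unadjusted p below 0.05. It ran from 119 to 363 CPM in LNP-Gsdme and from 42 to 132 CPM in LNP-GFP, and the groups overlapped. Itgb1 and Cd36 are also known from monocytes, and which cells in the sorted fraction carried these transcripts was not measured.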

How the data were processed

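RNA-seq of sorted tumour monocytes was analysed in 6 libraries, 3 per group, with groups taken from the treatment label and numbers from the titles. Per the labels' protocols, DNase-treated, bead-purified RNA went into paired-end TruSeq libraries. The authors deposited 1 table with raw counts and FPKM per gene, per the file headers, on GRCm39 per the submitters' processing notes. Aligner, counter, strandedness and annotation release, not given in the sources used here, could change counts of overlapping genes. The deposited FPKM values equal the counts scaled by gene length and by the total of each library (implied lengths differed by at most 0.00178% over 11356 genes). They were used for levels per length only. The spans of 8 members (Efemp2, Ltbp3, Matn2, Mfap4, Nid2, Ogn, Podn and Thbs3) overlap a protein-coding gene, and if strand was not used their reads cannot be told apart.

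The count model was edgeR 4.0.16 under R 4.3.3 (filterByExpr by group, 16010 genes left, TMM factors 0.980 to 1.04, robust quasi-likelihood test), with p-values adjusted by the Benjamini-Hochberg method over all genes tested. The procedure was tested on simulated data. "Fell" and "rose" mean an adjusted p below 0.05. CPM are over tested-gene totals times TMM factors, and the SE of a log2 fold change is its size divided by the square root of F. The members and lists were chosen with earlier results of these data known. Given library by library were, in each class, the 3 members highest in CPM and those with the largest fall and the smallest fall or largest rise. Of each list of related genes the 3 highest in CPM and, where 5 or fewer were called, the called ones were named, some by fold change alone. Other genes were named after their values were seen. Of the listed symbols 1 was not matched (Lrrc33, an older symbol of Nrros, which was matched). Marker sums not given in the report had macrophage, neutrophil, NK and T cell, tendon and cartilage, keratinocyte and adipocyte means of 4384, 308, 480.1, 5.06, 0.972 and 0.498 CPM in LNP-Gsdme and 5280, 270.0, 293, 11.7, 0.853 and 0.0763 CPM in LNP-GFP. Alternatives were DESeq2 1.42.0, limma-voom (limma 3.58.1), other size factors, other count filters, no robust fitting, an adjusted p below 0.01, a replicate block and each library left out. Leaving collagens, or collagens and Thy1, out of the fibroblast sum was chosen after seeing the data.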

Additional observations from a re-analysis of the deposited data

How the results depend on the processing

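Of 690 values of the 46 tested members over 15 alternative fits, 687 kept the sign of the log2 fold change. Those that did not were Efemp1 (range -1.54 to 0.01 with each library left out) and Ltbp1 (-0.05 to 0.53). Among related genes Tgfbr2 (-0.02 to 0.23) and Tgfbi (-0.02 to 0.12) changed sign too, and among markers C1qb (-0.18 to 0.22, and 0.02 by library size, 0.04 by limma-voom and with the replicate block, 0 with the stricter filter) and S100a9 (-0.70 to 0.65, and 0.17 by limma-voom). In the edgeR fit 851 genes fell and 1008 rose. DESeq2 called 1505 and 1543, 40 members, and 33 related genes lower with 2 higher. At an adjusted p below 0.01 the counts were 52 and 131, with 8 members and 1 related gene lower and 0 higher. With the replicate block they were 52 and 103, with 8 members and 2 related genes lower and 0 higher. Same-numbered libraries had correlations of deviations of 0.22, -0.26 and 0.03. With 3 libraries per group such values cannot settle whether the samples were paired, and the labels used here give no pairing. With each library left out, 24 to 1216 genes fell and 64 to 1625 rose, 4 to 43 members fell, and 0 to 42 related genes fell and 0 to 2 rose. Medians then ran from -1.77 to -1.16 for the members, -1.58 to -0.95 for the basement membrane genes and -2.14 to -1.47 for the other matrix genes, and the log2 ratio of the melanoma sums from -3.20 to -1.11. Per fibroblast marker sum without collagens, 27 members were lower and 3 higher, and without collagens and Thy1 16 were lower and 6 higher. The cause of these shifts was not tested. Members near 1 CPM, such as Cpz and Smoc1, have few counts and large counting error.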
